A study of Homo sapiens with 6 samples.

Results

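The MYC, MAX and MXD network comprised 10 genes (MYC, MYCL, MYCN, MAX, MXD1, MXD3, MXD4, MXI1, MNT and MLX) of the 63677 gene identifiers in the deposited count table. They were taken as a named set, matched by symbol to Ensembl identifiers. The rule used no measured value, but the set was chosen with earlier results of these data known. All 10 members were among the 21729 genes that passed the filter on low counts and entered the test.

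MYC proteins are basic helix-loop-helix leucine zipper transcription factors that bind E-box DNA only as dimers with MAX, and they recruit coactivators that raise transcription of genes for ribosome assembly, metabolism and growth. MXD proteins, MXI1 and MNT compete for MAX and bring the SIN3 corepressor to the same sites, and MLX pairs with some of these proteins and with the glucose-responsive factors MLXIP and MLXIPL. In cancer cells the balance between the activating and repressing dimers is often shifted by amplification of a MYC family gene.

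Poly(A) RNA was sequenced from UWB1.289, an established human ovarian carcinoma cell line that lacks functional BRCA1, with the genotype given as WT in the sample labels. The series holds 3 samples kept in medium with Olaparib, an inhibitor of poly(ADP-ribose) polymerases, and 3 samples kept in medium with the solvent DMSO, all for 24 h. The Olaparib dose was 4 µM in the sample labels and 10 µM in the series description. The samples are replicate dishes of 1 cell line, so the p-values measure the spread between dishes, and in bulk RNA fewer cells of a type and less RNA per cell cannot be told apart.

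Total counts per sample lay between 35360458 and 39640775. Of the tumor markers, 6 of 6 epithelial genes and 4 of 5 Mullerian and ovarian carcinoma genes had more than 3 counts in every sample, and the exception was WT1 with 8 counts over all samples. Of 10 markers of leukocytes, endothelium and fibroblasts, 5 were detected by the same rule, and their summed normalized count was 389.7 to 505.7 with Olaparib and 406.7 to 442.3 with DMSO. LUM and the identifier used for PECAM1 were listed at 0 in all samples. The endothelial gene VWF was the 1 marker of these 10 that passed the test (log2 fold change 0.68, adjusted p = 0.0106 by the quasi-likelihood test of edgeR, adjusted after Benjamini-Hochberg over all genes tested, and 0.071 by DESeq2), and its part in the results below was not tested. PAX8, a Mullerian lineage factor, also rose (log2 fold change 0.10, adjusted p = 0.0399, edgeR), but lost the call without 5 of the 6 samples in turn, with an adjusted p of 0.206 without the first DMSO sample.

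After Olaparib, MYCN transcripts rose and MXD3 transcripts fell, whereas the abundant members MYC, MXD4, MLX and MAX did not pass the test. These 2 of 10 members at an adjusted p under 0.05 compare with 3.36% of all genes tested, 2.15% higher and 1.21% lower after Olaparib. Both also exceeded a 1.2-fold change, a threshold named in the results of the study, which together with the adjusted p was passed by 1.21% of all genes. The study named DESeq2 with this threshold and reported fewer genes past it than the edgeR test found here. Its methods name an absolute log2 fold change above 1.5 instead, which no member reached and which was passed by 0.046% of all genes. The groups did not overlap for 4 of 10 members (MYC, MYCN, MAX and MXD3), beside 19.3% of all genes. The median log2 fold change of the members was -0.0304 and that of all genes tested was -0.00422.

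**Figure D1:**
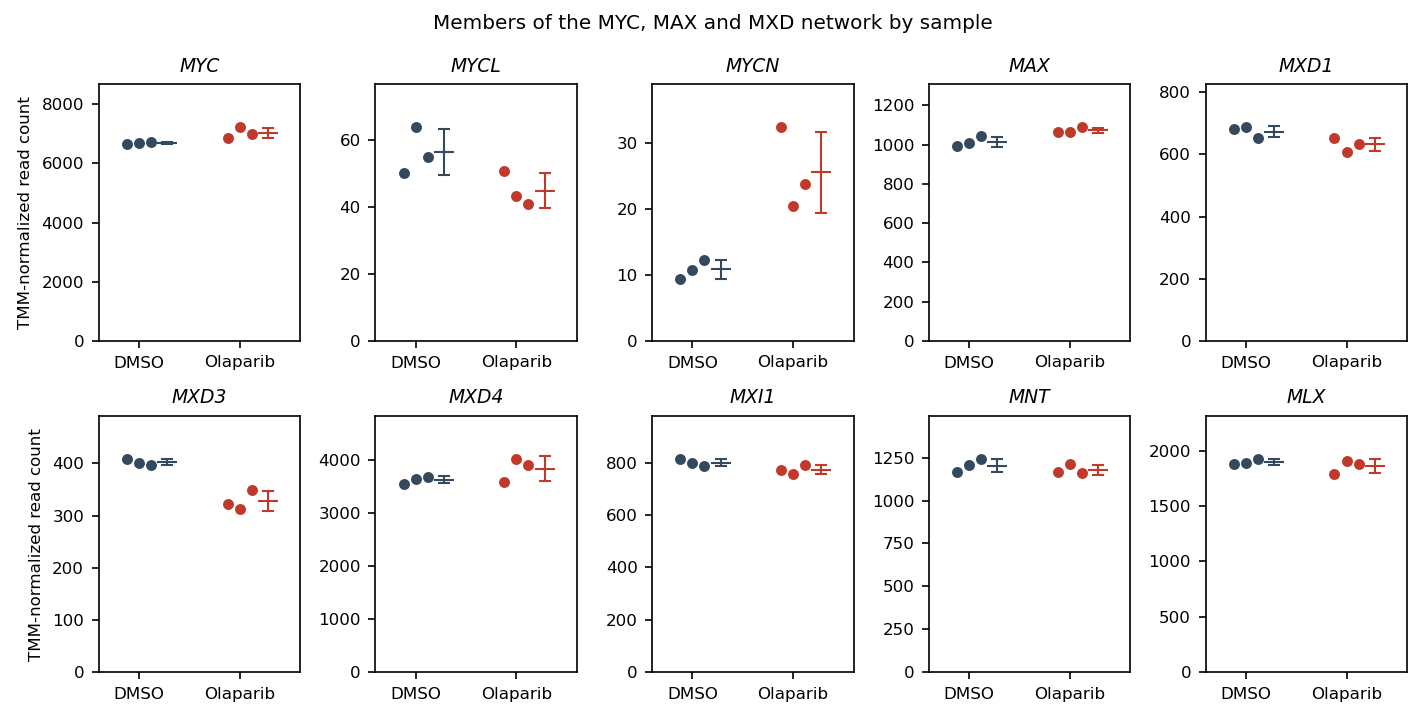
TMM-normalized read counts of the 10 members in the 3 DMSO samples (dark points) and the 3 Olaparib samples (red points), with a separate vertical axis from 0 for each gene and the mean ± SD beside the points. MYCN lay between 9.41 and 12.3 with DMSO and between 20.5 and 32.4 with Olaparib, and MXD3 between 397.2 and 408.8 with DMSO and between 312.8 and 348.9 with Olaparib.

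Among the activating members, MYC (ENSG00000136997, GRCh38 chr8:127735434-127742951, plus strand) is the broadly expressed founder of the family. Its normalized counts, scaled to the mean TMM library size, were 6865, 7220 and 6995 in the Olaparib samples and 6667, 6691 and 6733 in the DMSO samples. Every Olaparib sample was thus above every DMSO sample, but the difference was small. The log2 fold change of 0.07 ± 0.03 (SE, n = 3 per group) had an adjusted p of 0.258 (edgeR).

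MYCL (ENSG00000116990, GRCh38 chr1:39895428-39902256, minus strand) is the family member first found amplified in small cell lung cancer. It had normalized counts of 50.6, 43.1 and 40.8 with Olaparib and 50.2, 63.7 and 55.0 with DMSO. The groups overlapped, since the first Olaparib sample lay just above the first DMSO sample. The log2 fold change was -0.33 ± 0.17 (SE) and did not pass the test (adjusted p = 0.373, edgeR).

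MYCN (ENSG00000134323, GRCh38 chr2:15940550-15947007, plus strand) is known for its amplification in neuroblastoma and is normally expressed in embryonic tissue. Raw counts were 32, 20 and 24 in the Olaparib samples and 9, 11 and 13 in the DMSO samples, 109 in all. Normalized counts were 32.4, 20.5 and 23.9 with Olaparib against 9.41, 10.8 and 12.3 with DMSO. All Olaparib samples lay above all DMSO samples, with the first Olaparib sample highest. The transcript was 2.34-fold higher after Olaparib, a log2 fold change of 1.22 ± 0.29 (SE) with an adjusted p of 0.0112 in the edgeR test. Leaving out the first Olaparib sample gave 1.02 with an adjusted p of 0.0771, and leaving out the first or the second DMSO sample gave adjusted p-values of 0.0582 and 0.0527. DESeq2 estimated 1.24 with an unadjusted p of 0.00353 and assigned no adjusted p. The opposite-strand gene MYCNOS, which shares 3.56% of the exon bases of MYCN, had 2 counts over all 6 samples.

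**Figure D2:**
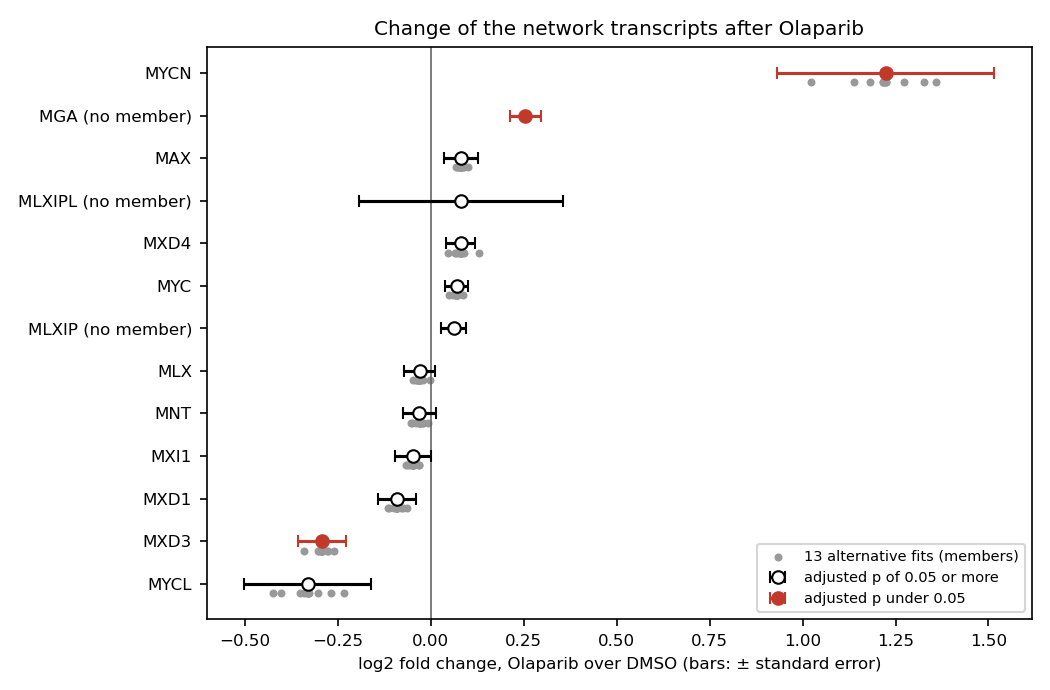
Log2 fold change of Olaparib over DMSO for the 10 members and 3 other partners of the network, with bars for the standard error, filled red points for an adjusted p under 0.05 in edgeR's test and small grey points for the alternative fits of each member. MYCN at 1.22 stands far to the right of the other genes, and MXD3 at -0.29 is the 1 member to the left of 0 that passed the test.

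MAX (ENSG00000125952, GRCh38 chr14:65006174-65102695, minus strand) is the shared partner of the MYC, MXD and MNT proteins. Its normalized counts were 1066, 1066 and 1089 with Olaparib and 994.3, 1007 and 1042 with DMSO. The groups did not overlap, and the log2 fold change of 0.08 ± 0.05 (SE) did not pass the test (adjusted p = 0.417, edgeR). Exons of other genes cover 16.1% of those of MAX, among them FNTB on the opposite strand, whose log2 fold change was -0.20 (adjusted p = 0.266).

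The repressing members differed among themselves. MXD3 (ENSG00000213347, GRCh38 chr5:177301461-177312757, minus strand), a MAX dimerization protein linked to proliferating progenitor cells, was the 1 member that fell. Its normalized counts were 321.9, 312.8 and 348.9 with Olaparib and 408.8, 400.1 and 397.2 with DMSO, so the highest Olaparib sample was below the lowest DMSO sample. The level with Olaparib was 0.816 times that with DMSO, a log2 fold change of -0.29 ± 0.07 (SE) with an adjusted p of 0.0064 in the edgeR test. This call held in each of 13 alternative fits, with adjusted p-values from 0.00251 to 0.0491 (0.045 in DESeq2).

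The exons of MXD3 are shared in 43.7% of their bases with PRELID1 on the opposite strand and RAB24 on the same strand, so that its count is uncertain. The log2 fold change of PRELID1 was 0.10 (adjusted p = 0.112, edgeR) and that of RAB24 was -0.10 (adjusted p = 0.777). Neither of these neighbours passed the test.

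MXD4 (ENSG00000123933, GRCh38 chr4:2247432-2262109, minus strand), a MAX partner of differentiating cells, was the most abundant repressor. Normalized counts of 3580, 4027 and 3907 with Olaparib and of 3553, 3647 and 3684 with DMSO overlapped through the first Olaparib sample. The log2 fold change was 0.08 ± 0.04 (SE, adjusted p = 0.323, edgeR). Without the first Olaparib sample it was 0.13 and passed the test (adjusted p = 0.0389).

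MXD1 (ENSG00000059728, GRCh38 chr2:69897688-69942945, plus strand), a MAX partner induced when myeloid and epithelial cells differentiate, had normalized counts of 653.8, 609.3 and 633.2 with Olaparib and 680.7, 687.4 and 652.2 with DMSO. Only the first Olaparib sample reached into the DMSO range. The log2 fold change of -0.09 ± 0.05 (SE) did not pass the test (adjusted p = 0.42, edgeR).

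MXI1 (ENSG00000119950, GRCh38 chr10:110207605-110287365, plus strand), a repressor also known as a hypoxia-responsive gene, gave 773.3, 755.9 and 790.3 normalized counts with Olaparib and 814.5, 798.2 and 785.9 with DMSO. MNT (ENSG00000070444, GRCh38 chr17:2384073-2401104, minus strand), the widely expressed antagonist of MYC, gave 1166, 1211 and 1158 with Olaparib and 1163, 1204 and 1243 with DMSO. Both genes overlapped between the groups. Their log2 fold changes were -0.05 ± 0.05 and -0.03 ± 0.05 (SE), with adjusted p-values of 0.715 and 0.823 (edgeR).

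MLX (ENSG00000108788, GRCh38 chr17:42567072-42573239, plus strand), the MAX-like partner of MLXIP and MLXIPL, had normalized counts of 1788, 1908 and 1879 with Olaparib and 1882, 1884 and 1926 with DMSO. The ranges overlapped, and the log2 fold change of -0.03 ± 0.04 (SE) did not pass the test (adjusted p = 0.809, edgeR).

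Levels of the members were compared with each other as RPKM, which divides counts by exon length and library size, computed from the counts with the summed exon length of GENCODE release 44. MYC was highest at 29.2 to 31.6 over the 6 samples, followed by MXD4 at 13.8 to 15.7 and MLX at 11.2 to 12.1. MAX, the shared partner, was lower at 4.25 to 4.65. MNT (3.56 to 3.82) and MXI1 (3.42 to 3.68) overlapped, then came MXD1 (2.56 to 2.89) and MXD3 (1.76 to 2.3). MYCL (0.219 to 0.343) and MYCN (0.0913 to 0.314) were lowest and overlapped. The ranges of the 6 samples were clear of each other for 7 neighbouring pairs in this order. When the length of the Ensembl canonical transcript was used instead, an alternative chosen after the values were seen, MXD3 moved from position 8 to position 5.

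**Figure D3:**
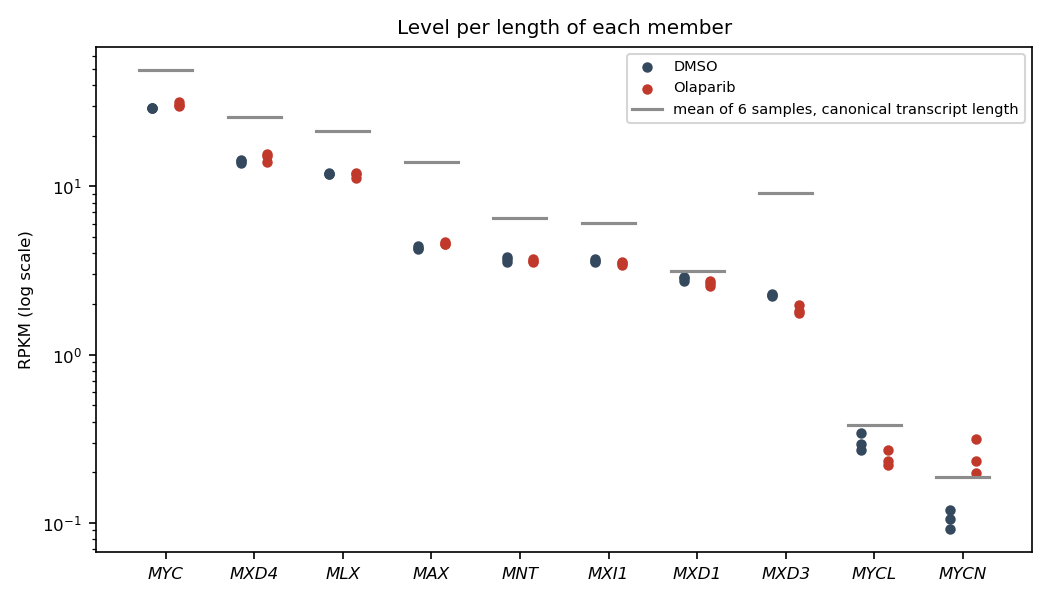
Level per length of each member in RPKM on a log scale, with DMSO samples in dark and Olaparib samples in red, and a grey line for the mean of the 6 samples when the canonical transcript length is used. MYC lies highest at 29.2 to 31.6, and MYCL and MYCN lie below 0.35 in all samples.

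The summed RPKM of the MYC family over that of MXD1, MXD3, MXD4, MXI1 and MNT was 1.198, 1.18 and 1.152 in the Olaparib samples and 1.125, 1.116 and 1.12 in the DMSO samples. All Olaparib samples were higher, and the exact two-sided permutation test gave p = 0.1, the smallest that 3 against 3 samples allow. The summed RPKM of the MYC family was 31.2 with Olaparib and 29.7 with DMSO, of which MYC was 30.7 and 29.3. That of the repressors was 26.5 in both groups, or 50.1 and 51 with the canonical length. With the canonical transcript length the ratio was 1.02 ± 0.0232 (SD, n = 3) with Olaparib and 0.953 ± 0.00242 with DMSO. The order of the groups held, and only the DMSO mean changed its position relative to equality. MYCN made up 0.798% ± 0.207 (SD, n = 3) of the summed MYC family RPKM with Olaparib and 0.354% ± 0.0456 with DMSO, or 0.514% and 0.228% with the canonical length. MXD3 made up 6.96% ± 0.414 of the summed repressor RPKM with Olaparib and 8.54% ± 0.207 with DMSO, or 16.4% and 19.7% with the canonical length. This share rests on a count that is uncertain through shared exon bases. MXD4 made up 56.2% ± 1.64 with Olaparib and 53.2% ± 0.521 with DMSO, or 52.9% and 49.1% with the canonical length. The ratio of the MYC family to MAX was 6.81 ± 0.195 with Olaparib and 6.86 ± 0.128 with DMSO (exact permutation p = 0.9), or 3.58 and 3.61 with the canonical length. For the ratio to MAX the groups overlapped with either length. The size of each share and ratio thus depended on the length used, and the order of the group means did not. These ratios were chosen after the values were seen.

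Promoter sequences are shown for MYCN and MXD3, the members past the test, and E-box sites for the members that hold one. They came from RefSeq windows on GRCh38.p14 that span 250 bases before to 50 bases after a start, and 9 of 10 members, all but MYC, matched in 12 windows. Capitals mark 2 overlapping matches to letters that E2F factors, regulators of S phase genes, are known to bind, TTTGGCGC and TTTCGCGC, the second read on the opposite strand. The 250 bases before the MYCN start (chr2:15940300-15940549, plus strand) and those before the MXD3 start (chr5:177312753-177313002, minus strand, with no such match) read:
MYCN: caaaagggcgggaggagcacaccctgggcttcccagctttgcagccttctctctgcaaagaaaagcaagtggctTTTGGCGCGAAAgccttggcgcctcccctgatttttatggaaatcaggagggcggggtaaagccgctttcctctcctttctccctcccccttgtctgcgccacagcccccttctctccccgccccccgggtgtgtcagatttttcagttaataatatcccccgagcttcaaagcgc
MXD3: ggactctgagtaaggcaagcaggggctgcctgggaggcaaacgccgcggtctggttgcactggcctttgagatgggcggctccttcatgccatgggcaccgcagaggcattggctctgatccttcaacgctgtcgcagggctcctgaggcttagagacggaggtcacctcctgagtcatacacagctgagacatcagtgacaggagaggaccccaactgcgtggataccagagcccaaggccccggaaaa

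Searching both strands for 4 E2F spellings (TTTCCCGC, TTTCGCGC, TTTGCCGC and TTTGGCGC) found a match in 1 of the 12 windows of the members, that of MYCN, beginning 176 and 172 bases before the start, and in 3.31% of all 35116 promoter windows. The E-box CACGTG, the site of MYC-MAX dimers, was found in 3 of 12 windows, which is 25%, and in 7.26% of all windows. The windows that held it belong to MXD4, MNT and MLX, beginning 238, 193 and 50 bases before their starts, and their sites with 12 bases on each side (E-box in capitals) read:
MXD4 (chr4:2262330-2262359, minus strand): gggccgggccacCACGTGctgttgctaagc
MNT (chr17:2401236-2401265, minus strand): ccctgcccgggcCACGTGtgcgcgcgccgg
MLX (chr17:42567038-42567067, plus strand): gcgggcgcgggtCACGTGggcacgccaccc

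None of these 3 members with an E-box passed the test after Olaparib. The same letters were in 42.4% of the 59 windows of the MYC-activated targets described next. The motifs were chosen after the values were seen, and a match is a description of letters in the window.

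Of the other partners of the network, MGA rose. MGA, a large MAX partner of the repressive PRC1.6 complex, had normalized counts of 2358, 2269 and 2206 with Olaparib and 1979, 1914 and 1838 with DMSO. The groups did not overlap, and the log2 fold change of 0.25 ± 0.04 (SE) had an adjusted p of 1.69e-04 in the edgeR test, below 0.05 whichever single sample was left out. MGA at 1.192-fold did not reach the 1.2-fold threshold, and neither did RUVBL2, PLK1, AURKA, MYCBP2 and NDRG1, described below. The glucose-responsive MLX partners MLXIP (log2 fold change 0.06, adjusted p = 0.4) and MLXIPL (0.08, adjusted p = 0.939) did not pass.

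Few cofactors of the network passed the test. None of 11 SIN3 and NCOR corepressor genes passed, beside 3.36% of all genes tested, and their median log2 fold change was 0.00132. An unadjusted p under 0.05 in the edgeR test was found for 2 of them, beside 3217 of all 21729 genes tested. A list of 11 genes is too short to tell none from such a small share. Of 14 coactivator genes, 1 rose, which is 7.14% beside 3.36% of all genes tested. This was the ATPase gene RUVBL2 (log2 fold change 0.11, adjusted p = 0.0391, edgeR). Its call was lost without 4 of the 6 samples in turn, with an adjusted p of 0.18 without the second Olaparib sample.

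Of 14 genes for the turnover of MYC proteins, 2 rose and none fell, which is 14.3% beside 3.36% of all genes tested. PLK1, a mitotic kinase that stabilizes MYCN, rose by 0.17 on the log2 scale (adjusted p = 4.71e-04, edgeR). AURKA, the mitotic kinase that shields MYCN from degradation, rose by 0.10 (adjusted p = 0.0391), and lost the call without 5 of the 6 samples in turn, with an adjusted p of up to 0.189. Among genes at the MYC locus or bound to MYC, MYCBP2 rose (0.16, adjusted p = 0.0277, but lost without 4 of the 6 samples in turn, with up to 0.171 without the third DMSO sample), whereas the neighbouring non-coding gene PVT1 (-0.04, adjusted p = 0.73) and the MYC-binding zinc finger factor ZBTB17 (0.10, adjusted p = 0.241) did not pass.

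**Figure D4:**
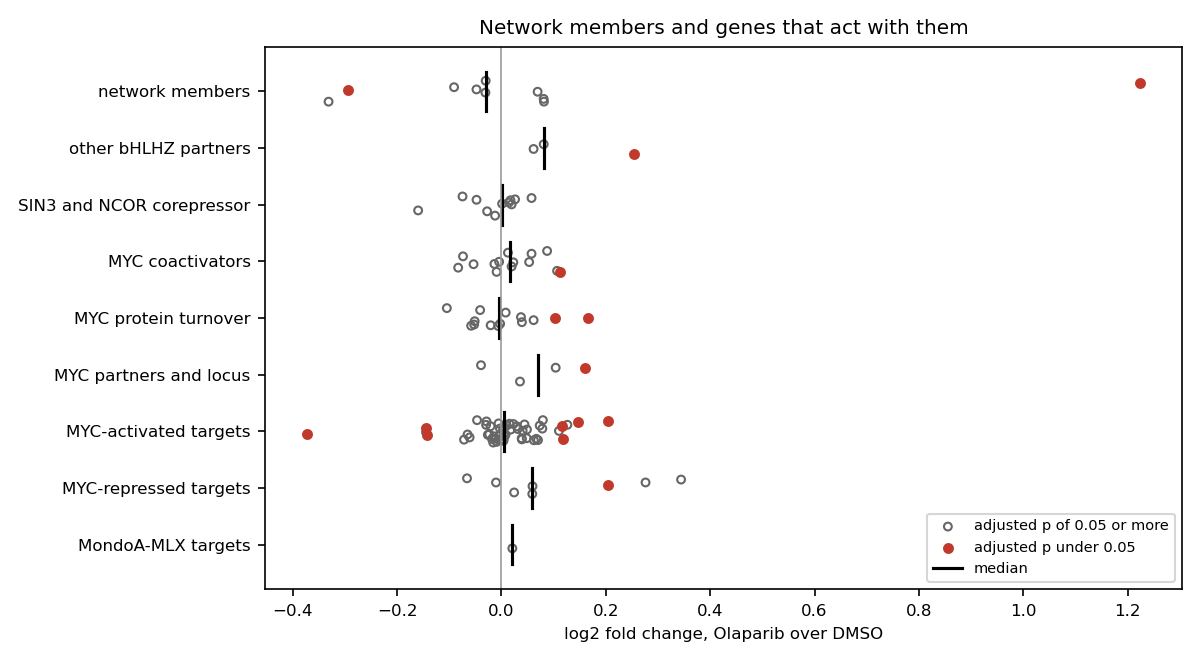
Log2 fold change of Olaparib over DMSO for each gene of the network and of the lists of genes that act with it, with red points for an adjusted p under 0.05 in edgeR's test, open points for the rest and a black line for the median of each list. The medians lie between -0.0304 for the members and 0.081 for the 3 other partners.

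Genes that MYC is known to activate moved in both directions. Of 54 tested, 4 rose and 3 fell, which is 13% beside 3.36% of all genes tested, with a median log2 fold change of 0.00549. With the 1.2-fold threshold added, only 1 of the 54 passed, beside 1.21% of all genes tested. UTP20 (0.20, adjusted p = 0.00158), a ribosome assembly factor, TFRC (0.15, adjusted p = 0.00681), the transferrin receptor, SRM (0.12, adjusted p = 0.0399), spermidine synthase, and SLC7A5 (0.12, adjusted p = 0.0272), an amino acid transporter, rose. EIF4A1 (-0.37, adjusted p = 3.19e-04), a translation initiation helicase, CCND2 (-0.15, adjusted p = 0.00229), a cyclin of G1, and LYAR (-0.14, adjusted p = 0.0338), a nucleolar protein, fell.

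Leaving out single samples moved these calls. EIF4A1 and CCND2 passed whichever single sample was left out, UTP20 (adjusted p = 0.0505) and TFRC (0.0931) failed without the third DMSO sample, and the other 3 failed without 3 to 5 of the 6 samples in turn. TFRC did not pass in DESeq2 (adjusted p = 0.193). Only 2 of the 54 passed without the third DMSO sample. EIF4A1 shares 47.4% of its exon bases with genes on the same strand, so its count is uncertain.

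Of 8 genes that MYC is known to repress, 1 rose, which is 12.5% beside 3.36% of all genes tested. This was NDRG1, a stress and differentiation gene. Its normalized counts of 3599, 3692 and 3588 with Olaparib were above those of 2913, 3211 and 3311 with DMSO, and the log2 fold change was 0.20 (adjusted p = 0.00192, edgeR). The cell cycle inhibitor CDKN1A (0.28, adjusted p = 0.208) did not pass. Of the targets of MLX with MLXIP, ARRDC4 differed by 0.02 on the log2 scale (adjusted p = 0.934), and the identifier used for TXNIP was listed at 0 in all samples.

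The genes whose log2 CPM moved most like MYC over the 6 samples were PYCR1, URM1 and FAM174C, with Pearson's r of 0.997, 0.997 and 0.996. For MXD3, the member with the lowest p, they were SETD4, TMA16 and IFNGR2 (0.992, 0.991 and 0.99). With 11989 candidate genes and only 6 samples, 134 genes reached 0.95 with MYC and 65 with MXD3. A high r was thus not particular to the genes named.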

How the data were processed

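The deposited table holds raw read counts per gene for 6 samples, whole numbers without normalization. To make these counts the authors used Trimmomatic on adapters, STAR against GRCh38, Picard to mark duplicates and featureCounts, and whether duplicates were removed and which strand setting was used is not given in the sources used here. The kit is stranded. The highest identifier of the table is below 10519 of the GENCODE release 44 identifiers, and release 44 held 81.9% of the identifiers in the table. Exon lengths and overlaps from release 44 are therefore approximate, and an identifier listed at 0 says nothing of its transcript.

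Genes with more than 10 counts in total were kept, normalized by TMM and compared with edgeR 4.0.16 (glmQLFit and glmQLFTest, R 4.3.3), without covariates, with Benjamini-Hochberg adjustment over all 21729 genes. The threshold was an adjusted p under 0.05, and the fold thresholds named in the study (1.2-fold in its results, a log2 fold change of 1.5 in its methods, the latter added after the data were seen) were tried as alternatives, as were DESeq2 1.42.0, limma 3.58.1 voom, other scalings and filters, a replicate block and leaving out each sample. The p of a ratio came from the exact permutation test over samples. The edgeR fit was tested on simulated data. Replicates differed by more than sampling noise (chi-square per degree of freedom 1.81 to 4.11), and all 6 samples were counted. With 109 and 304 counts over the 6 samples, MYCN and MYCL are the least precisely counted members.

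The members, gene lists, motifs and ratios were chosen with earlier results of these data known. Text names all members, the other MAX and MLX partners, both MLX targets, PVT1 and ZBTB17, and up to 4 genes per pathway list and direction past the test. CDKN1A, VWF and PAX8 were named after their values were seen. The genes most like MYC and like the member with the lowest p were taken from those with a mean count of at least 100.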

Additional observations from a re-analysis of the deposited data

How the results depend on the processing

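MYCN, MXD3 and the other members kept their direction in all 129 alternative fits with an adjusted p, of which 125 also kept their side of the threshold, 3 lost it (MYCN without the first Olaparib or the first or second DMSO sample) and 1 gained it (MXD4 without the first Olaparib sample). DESeq2 called 1 of the 9 members with an adjusted p, MXD3, and 520 genes over all, against 730 in edgeR. Leaving out single samples gave 1 to 2 members, and the 2 without the first Olaparib sample were MXD3 and MXD4. MYC-activated targets past the test numbered 2 to 10 without single samples (2 without the third DMSO sample, 4 without the first) and 1 with the 1.2-fold threshold. Over all genes the calls were 730, against 398 to 870 without single samples, 1322 with the replicate block and 262 with the 1.2-fold threshold. With a log2 fold change above 1.5, chosen after seeing the data, the calls were 10 over all genes, 0 of the members and 0 of the MYC-activated targets. Same-numbered samples did not consistently deviate together, with correlations of -0.204, 0.263 and -0.319 over 11997 genes. The highest correlation, 0.484, was between the third Olaparib and the first DMSO sample. The numbers were therefore not taken to pair the samples, and the block called 2 members. With upper-quartile scaling RUVBL2, AURKA and SRM had adjusted p-values of 0.0581, 0.0602 and 0.0602. The causes were not tested. MYCN and MYCL rest on few reads, and MXD3 and MAX share exon bases with other genes.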
